A study of Rattus norvegicus with 6 samples.

Results

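Some long non-coding RNA (lncRNA) genes of the Brown Norway rat were listed under exactly the same chromosome interval as another lncRNA gene, and the tissue profiles of such paired genes are described here. The members were transcript rows with class code "-", which means that the row was assigned to no reference gene. Each member's interval was also given for at least 1 other gene identifier of that class, and its own gene had fewer than 4 such rows. A stretch of chromosome 6 and a stretch of chromosome 7 were left out, which removed 3 rows. This gave 104 rows of 83 genes at 37 intervals, out of 2455 rows of 1646 genes at 1547 intervals in the whole table and 1722 rows of class "-". The rule used position and annotation and no expression value. Of the intervals, 26 held 2 member genes, 5 held 3, 2 held 4 and 1 held 5, which made 63 pairs at 34 intervals. At the remaining 3 intervals the partner had 4 or more rows, so a single gene was a member. Of the 83 genes, 65 had 1 row, 15 had 2 and 3 had 3.

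The RNA came from 6 tissues of male BN rats aged 6 weeks: liver, cortex, outer medulla, adrenal gland, hypothalamus and the heart's left ventricle. Each tissue was 1 sample, and the labels name no treatment. Neither "cortex" nor "outer medulla" is tied to an organ by its label. Every tissue had a pair of FPKM columns (numbered 1 and 2), and paired values below follow that numbering. FPKM scales the sequenced fragments of a transcript by its length and by the size of the library. Nothing in the labels says that the columns of a tissue are different animals. The p-values therefore reflect the scatter between columns, which may be technical. The hypothalamus columns carry the code B and were matched to that tissue by elimination.

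LncRNAs are transcripts that are spliced and processed much like messenger RNA but encode no known protein. Many act near the site where they are made, on genes beside them or on the opposite strand, and many are made in 1 tissue or a few. An assembler that builds transcripts from short reads gives each group of connected transcripts of 1 strand its own gene identifier, here beginning with XLOC, and each transcript an identifier beginning with TCONS. No function is given for any of the 83 genes in the sources used here, and no sequence is printed because no genome of the build used, rn5, was at hand. Exon positions are not in the table, so whether the exons of paired genes overlap was not tested.

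Strand was not listed, but the gene numbers carried information on it. Along each of the 21 chromosomes in the table the numbers rose with position, stepped back exactly once and then rose again, which split every chromosome into a first and a second block. Among genes that matched a RefSeq gene or shared a splice junction with it, 44 of 50 lay in the first block with a + strand gene or in the second block with a - strand gene. Among genes antisense to an exon, 64 of 68 lay in the block of the opposite strand. The blocks are therefore given below as a reading of strand, not as a listed value. At 24 of the 34 intervals with 2 or more members, the genes were in the same block, and at 10 they were in different blocks. Within a block the paired numbers lay close together, with a median gap of 8 over 53 pairs and a range from 1 to 64.

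The intervals were wide. Their median was 238426 bases, from 3651 on chromosome 16 to 824554 on chromosome 6. Genes of class "-" with fewer than 4 rows that were alone at their interval (966 genes) had a median interval of 9305 bases, measured as end minus start, against 250055 over the 83 members. An interval listed for several genes need not be the extent of any 1 of them, so the difference in width may follow from the rule. Row length differed less, with a median of 1433.5 bases (169 to 12637) for members and 1706 bases (205 to 52801) for the genes alone. At 4 of the 37 intervals a gene had a row with a reference class. Such rows were also found for 2 of the members themselves, XLOC_023808 and XLOC_065851.

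Most members were of low abundance. The highest tissue mean of a gene, taken over the sum of its class "-" rows, had a median of 1.55 FPKM over the 83 members and 1.44 FPKM over the 966 genes alone at their interval. It reached 10 FPKM in 5 members and in 65 of the genes alone. The steps between low FPKM values implied depths from 3870000 fragments (liver column 2) to 31860000 (hypothalamus column 2). Taking 3 fragments as what a count of 0 allows, a listed 0 at 1 kb of usable length leaves room for up to 0.775 FPKM in liver column 2 but for 0.0942 FPKM in hypothalamus column 2. Such limits include counting error alone, and a listed 0 may be a failed estimate instead. Where a gene had 1 row of more than 500 bases, the number of fragments its FPKM implies at these depths is given below as implied fragments.

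**Figure D1:**
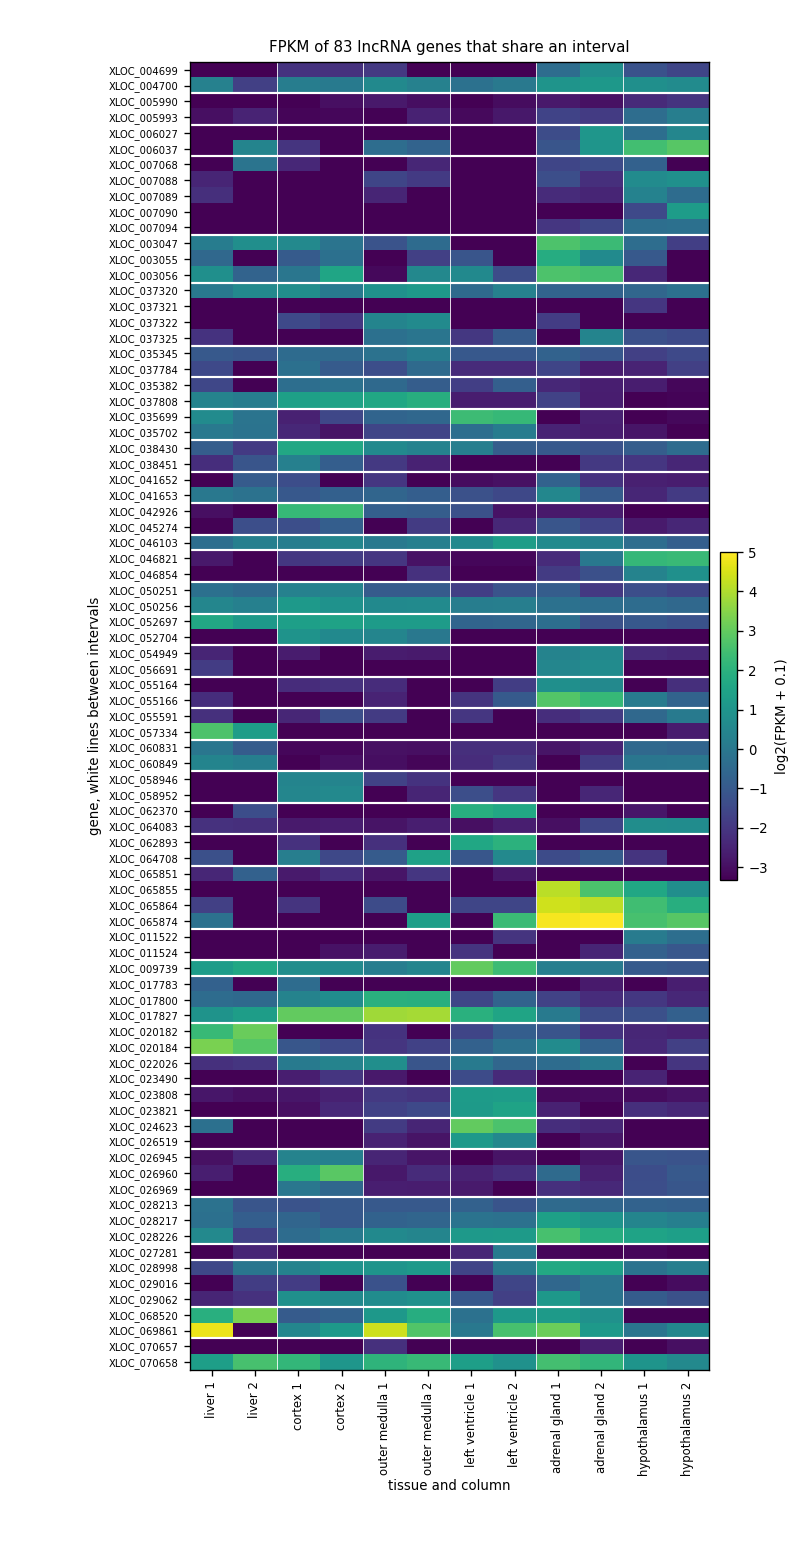
FPKM of the 83 genes in the 12 columns, as log2(FPKM + 0.1), with white lines between intervals and genes in order of chromosome, start and identifier. Genes between 2 white lines share an interval, and many of them are bright in the same columns, such as XLOC_065855, XLOC_065864 and XLOC_065874 in adrenal gland.

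To ask whether a gene marked 1 tissue, limma was run on log2(FPKM + 0.1) over all genes of the table with a mean of at least 1 FPKM in some tissue. The highest tissue was compared with each of the other 5, and the largest p was adjusted over all genes (Benjamini-Hochberg, threshold 0.05). A gene that passed is called restricted to that tissue. Of 1051 genes tested, 537 (51.1%) were restricted. Of the 83 members, 56 reached 1 FPKM and entered the test, and 31 of these were restricted. This share, 55.4%, was close to the background and to the 57.7% (373 of 646) among the genes alone at their interval. The counts by tissue are out of the 56 members tested, and the percentages beside them are shares of all 1051 genes tested. Left ventricle had 8 restricted members (8.56% of all genes), adrenal gland 8 (10.6%) and cortex 5 (6.66%). Hypothalamus had 5 (7.42%), liver 3 (14.0%) and outer medulla 2 (3.90%). The tissue specificity index tau, which runs from 0 for an even profile to 1 for a single tissue, had a median of 0.843 over the 56 genes and 0.850 over the 646.

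Paired genes had like tissue profiles. Both genes of 26 pairs, at 22 intervals, reached 1 FPKM in some tissue. In 21 of these 26 pairs (80.8%) both genes were highest in the same tissue. For comparison, neighbouring genes of the table with separate intervals were highest in the same tissue in 167 of 630 pairs (26.5%), and in 59 of 108 (54.6%) where the intervals were at most 100 kb apart, a distance chosen after seeing the data. Pearson's r over the 6 tissue means of log2(FPKM + 0.1) had a median of 0.88 (quartiles 0.80 and 0.95) over the 26 pairs, 0.70 over neighbours within 100 kb and 0.13 over all neighbours. Pairs that shared an interval but fell outside the member rule were at least as alike, with the same highest tissue in 81 of 86 (94.2%) and a median r of 0.894. Of those 86 pairs, 52 came from 1 interval on chromosome 9, and without it the count was 29 of 34 and the median r 0.864. These r values rest on 6 tissues that share their libraries, several pairs share a gene, and they carry no p. Over all 63 pairs, with no minimum, 39 (61.9%) had the same highest tissue and the median r was 0.79 (-0.757 to 0.997).

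**Figure D2:**
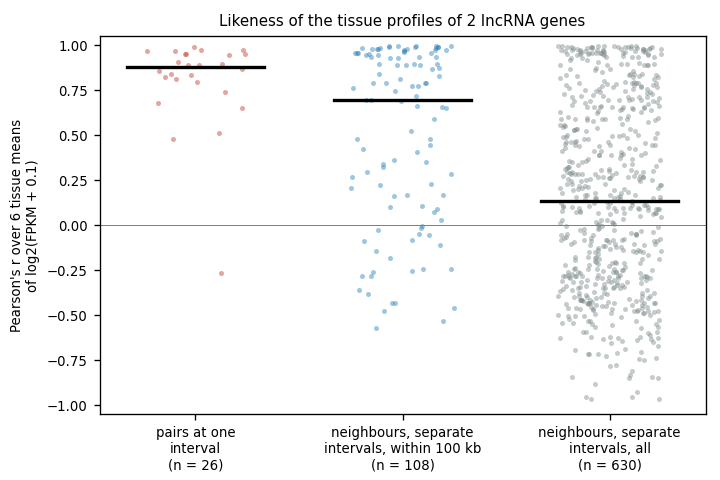
Pearson's r between the tissue profiles of 2 genes, over 6 tissue means of log2(FPKM + 0.1), for the 26 pairs at 1 interval, the 108 neighbouring pairs with separate intervals within 100 kb and the 630 neighbouring pairs in all. Each point is a pair and the bar is the median, at 0.88, 0.70 and 0.13; 1 of the 26 pairs lies below 0.

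Whether the profiles of 2 genes differed was tested on their log2 ratio in each column, with limma's F test for a tissue effect over all 742 pairs, the neighbours included. The ratio differed between tissues at adjusted p below 0.05 in 503 of the 742 pairs (67.8%) and in 474 of the 630 neighbouring pairs with separate intervals (75.2%). It differed in 6 of the 26 pairs at 1 interval (23.1%), and the same 6 was the count at an unadjusted p below 0.05. Among neighbours within 100 kb it differed in 60 of 108 (55.6%), and among pairs that shared an interval but fell outside the member rule in 23 of 86 (26.7%), or 12 of 34 without the chromosome 9 interval. Counting only the 14 pairs from intervals with 2 member genes, so that no gene entered more than once, 10 had the same highest tissue and 5 had a ratio that differed. Whether level or spread between columns bears on these shares was not tested. The median of the lower gene's highest mean was 1.64 FPKM in pairs at 1 interval. It was 1.57 FPKM both in all neighbours and in neighbours within 100 kb. The median SD of the log2 ratio between columns was 0.82 in pairs at 1 interval and 0.70 in the 14 pairs. It was 0.76 in all neighbours and 0.68 in neighbours within 100 kb. A ratio that did not pass the test is not shown to be equal in all tissues. Without liver column 1 the count was 11 of 26, and without outer medulla column 1 it was 4 of 26. It was 4 of 27 without left ventricle column 1.

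In 10 pairs, each at a different interval, both genes were restricted to the same tissue. The left ventricle had 2 of them. The narrowest interval, chr16:36095919-36099569, held XLOC_024623 (1 row of 804 bases, first block) and XLOC_026519 (1677 bases, second block), which read as opposite strands. XLOC_024623 had 7.93 and 6.16 FPKM in left ventricle and at most 0.744 in the other 10 columns (53.9 and 41.5 implied fragments in left ventricle). Its log2 difference over liver, the next tissue, was 4.61 (SE 0.81, adjusted p = 0.00155, limma). XLOC_026519 had 2.11 and 1.37 FPKM in left ventricle and at most 0.0751 elsewhere (log2 difference 3.55 over outer medulla, SE 0.27, adjusted p = 2.4e-05). Both genes were high in both left ventricle columns, and no other column overlapped with them. The sources used here do not state a strand setting for the counting, so reads of one of these genes may be counted for the other.

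The second left ventricle pair lay on the same chromosome at chr16:806604-1061543. XLOC_023808 (9797 bases) had 2.29 and 2.33 FPKM in left ventricle, and its other columns reached 0.162. XLOC_023821 (2284 bases) had 2.21 and 2.72 FPKM there, and its other columns reached 0.255. The log2 differences over outer medulla were 3.28 (SE 0.23, adjusted p = 1.6e-05) and 2.96 (SE 0.35, adjusted p = 1.8e-04). The levels of both genes were nearly the same in the heart, and outer medulla was next for both. XLOC_023808 also has a row antisense to an exon of Spin1, a reader of histone methylation, which is not in its sum here.

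Liver had 1 such pair, at chr14:5526638-5776693. XLOC_020182 had 4.75 and 8.54 FPKM in liver, against 0.231 and 0.455 in left ventricle (log2 difference 3.92, SE 0.53, adjusted p = 0.000391). XLOC_020184 had 10.03 and 6.93 FPKM in liver, against 1.51 and 0.511 in adrenal gland (log2 difference 3.09, SE 0.50, adjusted p = 0.000955). For both genes the lower liver column stood above the highest value of any other tissue. The ratio of the 2 genes did not pass the test (adjusted p = 0.24).

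Cortex had 2 pairs. At chr7:69589634-69620012, XLOC_058946 (1729 bases) had 1.24 and 1.26 FPKM in cortex, with 0.210 and 0.131 FPKM in outer medulla, and was listed at 0 in the other 8 columns (log2 difference 2.33, SE 0.21, adjusted p = 4.3e-05). Its partner XLOC_058952 (800 bases) had 1.32 and 1.42 FPKM in cortex against 0.296 and 0.148 in left ventricle (log2 difference 2.23, SE 0.40, adjusted p = 0.0017). The levels were close in cortex and the next tissue was not the same, and their ratio passed the test (adjusted p = 0.026). That call rests on few fragments, since XLOC_058946 had 5.8 and 3.8 implied fragments in outer medulla and XLOC_058952 had 2.0 and 1.0 in left ventricle. It was lost without outer medulla column 1, left ventricle column 1 or either hypothalamus column, with adjusted p between 0.0542 and 0.117. The second cortex pair, at chr16:72563691-72802225, is part of an interval with 3 genes and is given below.

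Adrenal gland had 3 pairs. At chr6:2318414-2340771, XLOC_054949 (first block) had 1.22 and 1.38 FPKM in adrenal gland and at most 0.105 elsewhere (log2 difference 2.81 over hypothalamus, SE 0.33, adjusted p = 1.8e-04). XLOC_056691 (second block) had 1.298 and 1.51 FPKM in adrenal gland and at most 0.178 elsewhere (log2 difference 3.17 over liver, SE 0.40, adjusted p = 2.8e-04). These genes, which read as opposite strands, had adrenal values between 1.22 and 1.51 FPKM, above all their other listed values. The adrenal values of XLOC_056691 (602 bases) rest on 8.1 and 12.3 implied fragments. At that length a listed 0 leaves room for more than the limit at 1 kb, which was 0.775 FPKM in liver column 2. The 0 of XLOC_056691 in that column therefore does not show absence.

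At chr6:39436558-39443915 the adrenal pair was XLOC_055164 and XLOC_055166, in the same block. XLOC_055164 had 1.68 and 1.41 FPKM in adrenal gland and at most 0.184 elsewhere, and XLOC_055166 had 6.68 and 4.68 FPKM in adrenal gland against 1.01 and 0.524 in hypothalamus. The log2 differences over the next tissue were 2.91 (SE 0.57, adjusted p = 0.0029) and 2.77 (SE 0.56, adjusted p = 0.0031). The ratio of XLOC_055164 to XLOC_055166 differed between tissues (adjusted p = 0.0090), from a log2 ratio of -2.49 in hypothalamus to 1.13 in cortex, with an SD between columns of 0.67. In cortex XLOC_055166 was listed at 0 in both columns and XLOC_055164 had 1.0 implied fragment in each, so that end of the range is close to the limit of detection. The third adrenal pair is part of the chromosome 9 interval below.

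Hypothalamus had 2 pairs. At chr4:158857095-159202543, XLOC_046821 had 4.53 and 4.87 FPKM in hypothalamus, against 0.105 and 0.915 in adrenal gland (log2 difference 3.40, SE 0.67, adjusted p = 0.0030). XLOC_046854 (1446 bases) had 1.22 and 1.69 FPKM in hypothalamus, against 0.170 and 0.306 in adrenal gland (log2 difference 2.22, SE 0.39, adjusted p = 0.0016). For both genes adrenal gland was the next tissue, and its column 2 was higher than its column 1. Without adrenal gland column 2 and hypothalamus column 1 together, both calls held. With a pseudocount of 0.01 in place of 0.1, XLOC_046854 lost its call (adjusted p = 0.104, limma). The second pair belongs to the interval with 5 genes on chromosome 1.

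**Figure D3:**
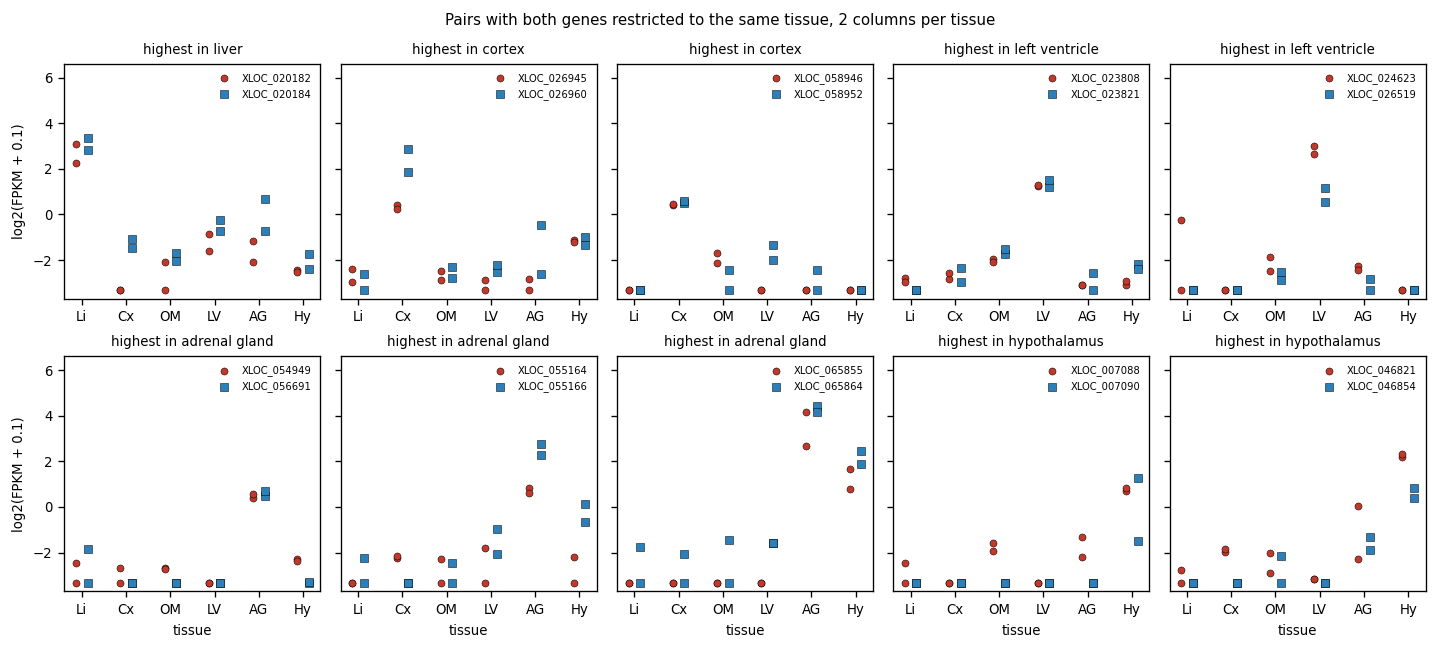
The 10 pairs in which both genes were restricted to the same tissue, as log2(FPKM + 0.1) in both columns of liver (Li), cortex (Cx), outer medulla (OM), left ventricle (LV), adrenal gland (AG) and hypothalamus (Hy). Red circles and blue squares are the 2 genes of a pair; in left ventricle XLOC_024623 had 7.93 and 6.16 FPKM and XLOC_026519 had 2.11 and 1.37.

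With a pseudocount of 0.01 in place of 0.1, 19 members were restricted in place of 31, and 3 pairs in place of 10 had both genes restricted to the same tissue. Those 3 were the left ventricle pairs and the liver pair. Every cortex, adrenal gland and hypothalamus pair had a gene that lost its call. The highest tissue of a gene is taken from its mean FPKM, so the pseudocount cannot change it. Leaving out single columns ended 5 of the 31 calls in at least 1 case. These were XLOC_003047 (without liver column 1 or adrenal gland column 1), XLOC_004699 (without adrenal gland column 2 or either hypothalamus column), XLOC_007090 (without hypothalamus column 2) and XLOC_017800 (without cortex column 1 or either outer medulla column). XLOC_065864 lost its call without any 1 column of left ventricle, adrenal gland or hypothalamus. Rescaling the columns to the same median, which raises the hypothalamus values, ended the adrenal calls of XLOC_065864 (log2 difference 1.09 over the next tissue, adjusted p = 0.201) and XLOC_004699 (0.78, adjusted p = 0.23), and with XLOC_065864 that of its pair.

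One pair was restricted to 2 different tissues. At chr8:30774958-31070967, XLOC_062370 (1016 bases, first block) had 3.61 and 3.11 FPKM in left ventricle and at most 0.295 elsewhere (log2 difference 4.12 over liver, SE 0.54, adjusted p = 3.2e-04). XLOC_064083 (11363 bases, second block) had 1.58 and 1.54 FPKM in hypothalamus and at most 0.234 elsewhere (log2 difference 2.91 over liver, SE 0.42, adjusted p = 5.8e-04). The left ventricle gene was at 0.0414 and 0 FPKM in hypothalamus, and the hypothalamus gene at 0.0261 and 0.0622 FPKM in left ventricle. Their log2 ratio was 4.59 in left ventricle and -3.80 in hypothalamus (SD between columns 0.75), a range of 8.39 that passed the test (adjusted p = 0.000146). This was the widest range among the 6 pairs that passed, and the only tested pair with an r below 0, at -0.27. The highest value of XLOC_064083 outside hypothalamus was in adrenal gland column 2, and the call on the ratio held without that column and hypothalamus column 1 together.

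A further pair on the same chromosome also joined genes of different blocks. At chr8:64569302-65170874, XLOC_062893 (598 bases) had 2.98 and 3.998 FPKM in left ventricle and at most 0.126 elsewhere (log2 difference 4.56 over cortex, SE 0.46, adjusted p = 8.4e-05). XLOC_064708 (406 bases) was spread over tissues, with 0.418 and 2.58 FPKM in outer medulla, 0.366 and 1.41 FPKM in left ventricle and 1.07 and 0.249 FPKM in cortex. The columns of XLOC_064708 overlapped between tissues. The ratio passed the test (adjusted p = 0.028, range of log2 ratios 5.06, SD between columns 1.302). That call was lost without cortex column 1, either left ventricle column or adrenal gland column 2, with adjusted p between 0.0526 and 0.156, and with a pseudocount of 0.01. Without outer medulla column 2 the pair did not reach the FPKM minimum.

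The remaining 2 pairs whose ratio differed lay within a block. At chr5:38235425-38370859, XLOC_052697 (10538 bases) was present in all columns, from 2.17 to 3.07 FPKM over the columns of liver, cortex and outer medulla and from 0.322 to 0.701 FPKM in the other 3 tissues. XLOC_052704 (1034 bases) had 1.82 and 1.43 FPKM in cortex and 1.28 and 0.911 FPKM in outer medulla and was listed at 0 in the other 8 columns. Both genes were thus present in cortex and outer medulla, while in liver, where XLOC_052697 had 3.07 and 2.17 FPKM, XLOC_052704 was listed at 0 in both columns. Their ratio had a range of 4.10 between liver and cortex (SD between columns 0.35, adjusted p = 0.0011), and the call held in each fit with a column left out. The liver end of that range depends on the added 0.1 FPKM, since XLOC_052704 was listed at 0 there. In liver column 2 a listed 0 leaves room for up to 0.775 FPKM at 1 kb. The other pair, XLOC_037320 and XLOC_037322, is part of a chromosome 2 interval with 4 genes.

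**Figure D4:**
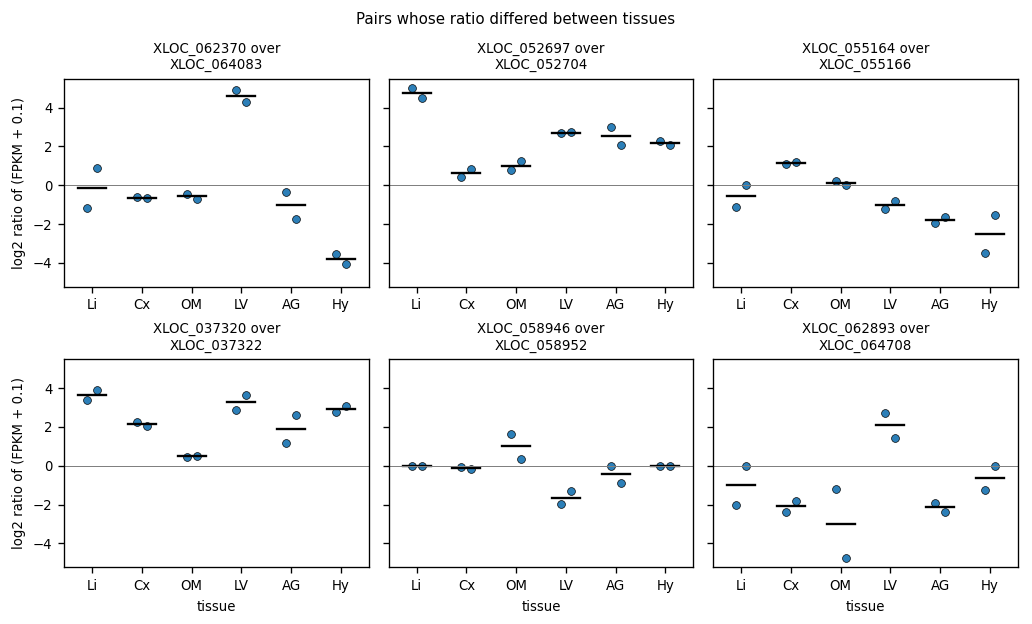
Log2 ratio of (FPKM + 0.1) between the 2 genes in each column, for the 6 pairs whose ratio differed between tissues, in liver (Li), cortex (Cx), outer medulla (OM), left ventricle (LV), adrenal gland (AG) and hypothalamus (Hy). Points are columns and bars are tissue means; XLOC_062370 over XLOC_064083 spans 4.59 in left ventricle and -3.80 in hypothalamus, while the other 5 pairs span 2.63 to 5.06.

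The interval with the highest values, chr9:11060508-11560435, held 4 members of the first block among 13 gene identifiers, 10 of which had a row with a reference class. Those rows were assigned to ENSRNOG00000039248, ENSRNOG00000049194 and ENSRNOG00000049939, each named by more than 1 row. Whether reads are split between similar copies was not tested, so the values are uncertain. XLOC_065874 (241 bases) had 29.2 and 31.9 FPKM in adrenal gland and 5.88 and 7.05 FPKM in hypothalamus. XLOC_065864 (556 bases) had 21.1 and 17.8 FPKM in adrenal gland and 5.30 and 3.58 FPKM in hypothalamus, with 119 and 130 implied fragments in adrenal gland. XLOC_065855 (205 bases) had 17.7 and 6.22 FPKM in adrenal gland and 3.03 and 1.61 FPKM in hypothalamus, with zeros in the other 8 columns. The 3 genes shared the order of adrenal gland first and hypothalamus second, with r between 0.95 and 0.99, and their ratios did not pass the test (adjusted p = 0.804 to 0.957). XLOC_065855 and XLOC_065864 were restricted to adrenal gland (log2 differences over hypothalamus 2.19, SE 0.49, adjusted p = 0.0057, and 2.13, SE 0.73, adjusted p = 0.039). XLOC_065874 was not, with 2.44 FPKM in outer medulla column 2 and 5.03 in left ventricle column 2 beside zeros in column 1 of both tissues. Hypothalamus column 1 was above column 2 for XLOC_065864 and XLOC_065855 and below it for XLOC_065874. The fourth member, XLOC_065851, was at most 0.504 FPKM, in liver column 2, and at 0 in adrenal gland and hypothalamus. Its other 3 rows overlapped ENSRNOG00000039248 and are not in its sum, although 1 of them has the same length and values as the class "-" row.

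The interval with 5 genes, chr1:202577889-202932227, was a hypothalamus interval for 4 of them. XLOC_007088 had 1.505 and 1.69 FPKM in hypothalamus and at most 0.299 elsewhere (log2 difference 2.52 over outer medulla, SE 0.39, adjusted p = 7.4e-04). XLOC_007090 (280 bases) had 0.254 and 2.32 FPKM in hypothalamus and zeros in the other 10 columns (adjusted p = 0.0048). At 280 bases a listed 0 leaves room for more than the limit at 1 kb, which was 0.775 FPKM in liver column 2. The zeros of XLOC_007090 therefore do not show absence. XLOC_007089 had 1.18 and 0.667 and XLOC_007094 had 0.709 and 0.750 FPKM in hypothalamus, both under the 1 FPKM minimum on the mean. These 4 genes were above each other tissue in both hypothalamus columns, with r between 0.88 and 0.96 among them. The fifth, XLOC_007068, differed, with 0 and 0.819 FPKM in liver and 0.5001 and 0 FPKM in hypothalamus, which is 2.0 implied fragments in liver column 2 and 8.7 in hypothalamus column 1.

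At chr1:210280454-210396919 all 3 genes were highest in adrenal gland. XLOC_003047 (298 bases) had 6.30 and 4.98 FPKM there, against 1.02 and 1.61 in liver (log2 difference 2.05, SE 0.52, adjusted p = 0.011). XLOC_003056 (311 bases) had 6.31 and 5.59 FPKM, against 0.859 and 2.90 in cortex. XLOC_003055 (411 bases) had 3.48 and 1.47 FPKM, against 0.420 and 0.733 in cortex. The adrenal columns lay above all other columns for each of the 3, although XLOC_003055 and XLOC_003056 were not restricted by the test. The r between XLOC_003047 and XLOC_003056 was 0.655, among the lowest of the 26, and their hypothalamus values were 0.679 and 0.189 for XLOC_003047 and 0.0883 and 0.00117 for XLOC_003056.

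The outer medulla genes of highest level were at chr13:110713353-111329066. XLOC_017827 (4369 bases) had 13.9 and 14.6 FPKM in outer medulla, against 7.88 and 7.86 in cortex, and was above 0 in all columns. XLOC_017800 (2226 bases) had 3.78 and 3.72 FPKM in outer medulla, against 1.23 and 1.55 in cortex (log2 difference 1.38, SE 0.38, adjusted p = 0.015). Both genes had the order outer medulla, then cortex, with an r of 0.95, and XLOC_017827 did not pass the test of restriction. The third gene, XLOC_017783, had 0.507 and 0 FPKM in liver and 0.671 and 0 FPKM in cortex. It was listed at 0 in both outer medulla columns, where the other 2 were highest.

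On chromosome 16, chr16:72563691-72802225 held 3 genes highest in cortex. XLOC_026960 had 3.59 and 7.23 FPKM in cortex, against 0.291 and 0.400 in hypothalamus (log2 difference 3.56, SE 0.68, adjusted p = 0.0024). Most of its cortex sum came from a row of 261 bases, at 2.25 and 6.36 FPKM. Its row of 2760 bases had 1.34 and 0.876 FPKM in cortex. A row that short can reach such values on few fragments. XLOC_026945 had 1.22 and 1.097 FPKM in cortex, against 0.360 and 0.335 in hypothalamus (log2 difference 1.49, SE 0.32, adjusted p = 0.0044). XLOC_026969 had 0.892 and 0.589 FPKM in cortex, against 0.297 and 0.363 in hypothalamus. All 3 genes were highest in cortex in both columns, and r lay between 0.899 and 0.929. Hypothalamus was next for XLOC_026945 and XLOC_026969, while for XLOC_026960 adrenal gland column 1, at 0.634 FPKM, lay above both hypothalamus columns. Of that adrenal value, 0.577 FPKM came from the row of 261 bases. Rescaling the columns to the same median took XLOC_026945 below the FPKM minimum, which ended its call and that of the pair.

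Chromosome 17 had 2 intervals with 3 genes. At chr17:4512-266152, XLOC_028226 had 5.82 and 3.51 FPKM in adrenal gland, against 2.76 and 2.51 in hypothalamus, and XLOC_028217 had 2.55 and 1.89 FPKM in adrenal gland, against 1.29 and 1.11 FPKM in hypothalamus. XLOC_028213 was even, from 0.334 to 0.783 FPKM over the 12 columns. Of the 2 that reached the FPKM minimum, neither was restricted by limma, and XLOC_028217 missed the threshold narrowly (adjusted p = 0.0500052). At chr17:65753894-66217217, XLOC_028998 had 3.13 and 2.60 FPKM in adrenal gland and 1.87 and 2.13 FPKM in outer medulla, and XLOC_029062 had 2.04 and 0.828 FPKM in adrenal gland and 1.56 and 1.75 FPKM in outer medulla. XLOC_029016 reached 0.829 FPKM in adrenal gland column 2. The first 2 genes had an r of 0.91 although their highest tissues differed, and their adrenal and outer medulla columns overlapped for XLOC_029062.

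The interval chr2:175729003-176165192 held 4 genes of the second block, with r from -0.399 to 0.743. All r values below 0 were of pairs with XLOC_037321, which was near the limit of detection. XLOC_037320, XLOC_037322 and XLOC_037325 each had their highest mean in outer medulla, with r from 0.081 to 0.743 among them. XLOC_037320 was above 0 in all columns, from 0.507 FPKM in adrenal gland column 2 to 2.16 in outer medulla column 2. XLOC_037322 had 1.25 and 1.48 FPKM in outer medulla, against 0.255 and 0.156 in cortex (log2 difference 2.28, SE 0.43, adjusted p = 0.0022), with 9.9 and 12.3 implied fragments in outer medulla. The ratio of XLOC_037320 to XLOC_037322 differed between tissues, with log2 ratios from 3.64 in liver to 0.49 in outer medulla (SD between columns 0.51, adjusted p = 0.011). In liver XLOC_037322 (592 bases) was listed at 0 in both columns, so that end of the range depends on the added 0.1 FPKM. The call on the ratio therefore rests in part on values at the limit of detection. It was lost without outer medulla column 1 (adjusted p = 0.052) and with a pseudocount of 1 (adjusted p = 0.0503). XLOC_037325 had 0.745 and 0.839 FPKM in outer medulla and 0 and 1.25 in adrenal gland, so its 2 adrenal columns lay on either side of outer medulla. XLOC_037321 was above 0 only in hypothalamus column 1, at 0.149 FPKM or 2.9 implied fragments.

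Genes in different blocks at 1 interval made up 10 of the 63 pairs. Of these 10, 4 had the same highest tissue and the median r was 0.53. Of the 53 pairs in 1 block, 35 had the same highest tissue and the median r was 0.82. The difference between these sets was not tested. Besides the pairs given above, 6 intervals joined both blocks, and these and the genes in the next 2 paragraphs are named so that each member is accounted for. At chrX:36777265-36801371, XLOC_069861 had 27.0 and 0 FPKM in liver and 20.4 and 6.58 FPKM in outer medulla, and XLOC_068520 had 3.72 and 9.87 FPKM in liver and 2.08 and 3.56 FPKM in outer medulla. Their rows were 169 to 355 bases long, the columns of a tissue stood far apart and the r was 0.51. At chr6:83635082-84459635, the widest interval, XLOC_057334 had 6.26 and 2.39 FPKM in liver and at most 0.0541 elsewhere (log2 difference 5.001 over hypothalamus, SE 0.41, adjusted p = 2.9e-05), while XLOC_055591 had 0.600 and 0.944 in hypothalamus and at most 0.303 elsewhere.

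At chr3:177358595-177407054, XLOC_042926 (3184 bases) had 4.70 and 5.19 FPKM in cortex, against 0.473 and 0.450 FPKM in outer medulla, 3.17 apart on the log2 scale (SE 0.49, adjusted p = 0.000742), and XLOC_045274 of the other block was at most 0.458, also in cortex. At chr2:223344687-223363027, XLOC_037808 had 3.01 and 3.60 FPKM in outer medulla and 2.53 and 2.67 FPKM in cortex, and XLOC_035382 had 0.613 and 0.452 FPKM in outer medulla and 0.709 and 0.759 FPKM in cortex. The means of both genes were highest in these 2 tissues, in opposite order. At chr2:219334247-219340068, XLOC_035345 (0.198 to 1.03 FPKM) and XLOC_037784 (0 to 0.733) were low in all columns. At chr15:85627156-86022439, XLOC_022026 ranged from 0 to 1.64 FPKM and XLOC_023490 from 0 to 0.270.

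Among the 53 pairs within a block, some joined genes of unequal level. At chrX:137511207-137797935, XLOC_070658 had 1.405 to 5.81 FPKM over the 12 columns, and XLOC_070657 was at most 0.122. A gene at 1 FPKM or more beside one below 0.1 on every tissue mean was found in 3 pairs, this one and 2 with XLOC_037321. At chr2:261854683-261873540, XLOC_035699 had 5.13 and 4.70 FPKM in left ventricle, against 1.53 and 0.811 in liver (log2 difference 2.04, SE 0.45, adjusted p = 0.0052), and XLOC_035702 had 0.701 and 1.02 FPKM in left ventricle and 0.934 and 0.795 FPKM in liver. At chr7:66221239-66635509, XLOC_060849 (12637 bases) had 1.24 and 1.11 FPKM in liver and 0.866 and 0.883 FPKM in hypothalamus, and XLOC_060831 (6077 bases) had 0.865 and 0.435 FPKM in liver and 0.606 and 0.541 FPKM in hypothalamus. The other 8 columns were at most 0.164 for both. This pairing of liver with hypothalamus gave the highest r of the 63 pairs, 0.997, at 351.5 implied fragments of XLOC_060849 in hypothalamus column 2.

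At chr1:40254031-40430587, XLOC_004699 had 0.680 and 1.63 FPKM in adrenal gland, against 0.324 and 0.236 in hypothalamus (log2 difference 1.62, SE 0.50, adjusted p = 0.025), and XLOC_004700 was above 0 in all columns, from 0.202 to 2.09. At chr5:2301444-2486377, XLOC_050256 had 2.11 and 1.81 FPKM in cortex and XLOC_050251 had 1.17 and 1.21, the highest tissue of both. At chr2:278043295-278563330, XLOC_038430 had 3.06 and 3.03 FPKM in cortex and XLOC_038451 had 1.12 and 0.465, again both highest there. At chr3:112724656-112740016, XLOC_041653 (0.0845 to 1.35 FPKM) and XLOC_041652 (0 to 0.514) were both highest in adrenal gland column 1. At chr10:58026862-58070143, XLOC_011522 had 1.002 and 0.706 FPKM in hypothalamus and XLOC_011524 had 0.505 and 0.380, with at most 0.141 elsewhere for each.

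A pair of intervals at or near the microRNA gene rno-mir-344i on chromosome 1 held members of the second block. At chr1:123914615-123956595, XLOC_006037 had 5.54 and 7.03 FPKM in hypothalamus, against 0.356 and 1.94 in adrenal gland, and XLOC_006027 (397 bases) had 0.282 and 1.99 FPKM in adrenal gland and 0.701 and 1.31 FPKM in hypothalamus. Adrenal gland column 2 was the higher adrenal column for both, and the highest mean of XLOC_006027 rests on it. At chr1:123503222-123741647, which also lists a row at rno-mir-344i, XLOC_005993 had 0.690 and 1.07 FPKM in hypothalamus, against 0.216 and 0.175 FPKM in adrenal gland. XLOC_005990 had 0.0995 and 0.137 FPKM in hypothalamus, against 0.0490 and 0.0306 FPKM in adrenal gland.

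At 3 intervals the partner had 4 or more rows and lay in the other block. At chr10:81661970-81676304, the member XLOC_009739 had 7.86 and 5.10 FPKM in left ventricle, against 2.31 and 3.03 in liver (log2 difference 1.23, SE 0.28, adjusted p = 0.0065), and its partner XLOC_011938 had 32.6 and 26.1 FPKM in liver and 6.27 and 6.76 FPKM in left ventricle. At chr17:7207388-7224664, XLOC_027281 had 0.0863 and 0.958 FPKM in left ventricle, and its partner XLOC_028293 had 1.47 and 1.74 in cortex. At chr4:58098301-58417174, XLOC_046103 had 0.478 to 2.36 FPKM over the 12 columns, and its partner XLOC_048695, with rows that overlap Mir29b-1, a microRNA gene of the mir-29 family, had 6.37 to 17.99. In none of these 3 was the highest tissue of the member that of its partner.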

How the data were processed

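The authors' deposited table held FPKM values of lncRNA rows in 12 columns, 2 for each of 6 tissue samples, and the length of each row in bases, which is another kind of deposited value. Per the submitters' processing notes, bcl2fastq 2.15.0 and the rn5 build were involved. The labels' protocols give TRIzol for extraction and the TruSeq Stranded RNA LT kit for library construction. Per the file headers, the columns are named in the way of Cufflinks tracking output. Which aligner, quantifier and strand setting were used, and how a lncRNA was called, is not given here. Of 2458 rows, 3 without values were left out. FPKM was summed over the class "-" rows of each member gene and over all rows of other genes. The members, gene lists and tests were chosen with earlier results of these data known. The design took the 2 columns of a tissue as 2 libraries for the tests.

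The tests ran in limma 3.58.1 (R 4.3.3), after table handling in pandas 2.3.3 (Python 3.11.15), with a mean-variance trend and p-values adjusted by the Benjamini-Hochberg method over all genes or all pairs tested. Fold changes are on the log2(FPKM + 0.1) scale, which understates changes of low genes and, over a listed 0, depends on the added 0.1. Depth was read from the steps of low FPKM values of rows over 500 bases, with an assumed mean fragment of 140 bases; 80.9 to 89.6% of those values came within 0.15 of whole fragments. Strand was read from gene numbers and RefSeq strands in a table of GRCr8, used for strands by symbol and for no coordinate. Genes named were all those at intervals with 3 or more members, the 8 pairs of highest level, the called pairs, the 4 highest and lowest r, up to 8 pairs with both genes restricted and up to 4 pairs with a partner below 0.1 FPKM; others are named so that each member is accounted for. The alternatives were pseudocounts of 0.01 and 1, other FPKM minimums, rescaled columns, columns left out, a block for the column number, no trend, partners counted among all rows, a 5-fold rule and single transcripts.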

Additional observations from a re-analysis of the deposited data

How the results depend on the processing

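As reported, 31 members were restricted to 1 tissue, 6 of 26 pairs had a ratio that differed between tissues, 21 had the same highest tissue, the median r was 0.88 and 10 pairs had both genes restricted to the same tissue. With a pseudocount of 0.01 there were 19 restricted members and 3 pairs restricted alike. With no FPKM minimum the ratio differed in 19 of 63 pairs, 39 had the same highest tissue and 18 were restricted alike. With a minimum of 2 FPKM there were 18 restricted members and 3 pairs restricted alike, and all 11 tested pairs had the same highest tissue. At that minimum limma called the ratio different in 0 of the 11 pairs, and in 0 at an unadjusted p below 0.05, since the 6 called pairs were no longer tested. With partners counted among all rows, of any class, the ratio differed in 15 of 55 pairs, 49 had the same highest tissue and 17 were restricted alike; 27 of the 55 pairs were at the chromosome 9 interval, and without it the ratio differed in 9 of 28 and 22 had the same highest tissue. Leaving out 1 column at a time gave 30 to 34 restricted members, 4 to 11 differing ratios, 20 to 22 pairs with the same highest tissue, a median r of 0.84 to 0.89 and 9 to 10 pairs restricted alike. With the column number as a replicate block there were 32, 7 and 10; deviations of same-numbered columns correlated at -0.036 to 0.15 between tissues, so the numbers were not taken to pair samples. Without the hypothalamus columns, matched by elimination, there were 29 restricted members and 8 pairs restricted alike. The columns were rescaled to 1 median because, over 503 genes above 0 in all columns, it was 0.451 and 0.421 FPKM in hypothalamus and 0.763 to 1.06 FPKM in the other tissues. With the columns rescaled there were 35 and 13, although the calls of XLOC_004699, XLOC_026945 and XLOC_065864 were lost, with a 5-fold rule in place of a test 23 restricted members, and with single transcripts 32. The median r stayed at 0.79 or above in the settings run, and that of neighbours at any distance stayed at 0.22 or below. Neighbours within 100 kb, the closer comparison, had a median r of 0.70 as reported and were not followed over the other settings. The added 0.1 FPKM is near the value of 1 to 3 fragments for many rows, and liver column 2 limits what can be read as 0 in liver.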

Other observations

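When partners with a reference class also counted, 10 more genes of class "-" joined, with 13 pairs of their own at any level, of which 7 had the same highest tissue. At chr16:31198877-31810313, XLOC_024422 had 3.28 and 3.32 FPKM in left ventricle, against 1.07 and 1.054 FPKM in outer medulla. Its partner XLOC_024381, which overlaps Palld, the gene of the actin-binding protein palladin, had 7.36 and 6.21 FPKM in left ventricle, against 0.360 and 0.379 in outer medulla. At chr7:97759170-97927166, XLOC_061215 had 1.77 and 1.39 FPKM in cortex, against 0.590 and 0.829 in outer medulla, and its partner XLOC_061212, antisense to an exon of ENSRNOG00000036522, had 4.79 and 5.80 FPKM in cortex, against 2.80 and 2.75 in outer medulla. At chr3:86613320-86646458, XLOC_041216 had a partner antisense to Spi1, the gene of a transcription factor of myeloid cells. By mean, XLOC_041216 was highest in outer medulla, at 0.803 and 0.738 FPKM, but it had 0.822 and 0 FPKM in liver. The partner XLOC_044077 was highest in left ventricle, at 1.11 and 1.17 FPKM, and had 0.721 and 0.831 FPKM in outer medulla. The r of this pair was 0.74. At chr15:11464689-11995727, XLOC_021277 had 7.15 and 7.02 FPKM in liver, against 2.76 and 3.54 in cortex, while its partner XLOC_022722 ranged from 0.535 to 1.33 over the 12 columns.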
